A study of Mus musculus with 6 samples.

Results

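The genes described here are 8 genes of the vessel wall through which leukocytes leave the blood: the selectins Sele and Selp, the immunoglobulin-family adhesion molecules Vcam1, Icam1 and Madcam1, the chemokine-binding receptor Ackr1, and the endothelial genes Vwf and Pecam1. They were chosen by name, with earlier results of these data known. A probe was given to a gene where the RefSeq accession in its annotation maps to that gene's symbol. They are 8 of the 19752 genes named on the array and were read by 10 probes, 1 each for 6 of the genes and 2 each for Vcam1 and Madcam1. On all 6 arrays 7 of the 8 genes were well above background, the scanner software's mark for a spot distinct from its surroundings, and Sele was so on 2 arrays.

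Total RNA of homogenised whole lung was measured on 6 Agilent 1-colour arrays, 1 for each of 6 groups of mice of the C57BL/6 strain. The groups are wild type (WT), FcRg-/- and FceRIa-/- mice, and each genotype received either PBS or mouse HRF (histamine-releasing factor, named mHRF-His in the sample descriptions) through the nose. HRF is a protein found in allergic secretions that can bind IgE and act on mast cells and basophils, and FcRg and FceRIa are chains of the IgE receptor that Fcer1g and Fcer1a encode. The labels used here give no age, dose or time, and do not say whether an array holds 1 mouse or pooled mice. Since each group has 1 array, ratios between arrays could not be checked on replicates, and the number of arrays is what sets their precision.

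A level is the log2 ratio of a probe's processed signal to the 75th percentile of its array, so that 0 marks that percentile, and a ratio is the difference of 2 such levels of the same probe. Levels of different probes are not comparable with each other. Each array held 59305 spots other than controls, of which 67.5% to 79.6% were well above background and 0 were saturated, and the 75th percentile lay between 1197 and 1622 units of processed signal. All arrays lie on 1 slide and were scanned in 1 run.

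The genotype labels of the knockout arrays were not borne out by the targeted genes. Fcer1g stood at 4.14 and 4.32 on the FcRg KO-labelled PBS and HRF arrays, against 3.93 and 4.61 in WT, and Fcer1a stood at -0.90 and -1.16 on the FceRIa KO-labelled arrays, against -4.48 and -4.19 in WT. Whether these probes lie in the deleted parts is not given in the sources used here. The arrays labelled FcRg KO also stood apart in B cell genes: Cd79b, a chain of the B cell antigen receptor, was at 0.76 and 0.74 there, against 3.74 to 4.27 on the other 4 arrays, and Ms4a1, which encodes CD20, was not well above background. The limma fit across all genes, described with the tests, called 26 of 17605 genes in that contrast (0.148%), among them Cd79b at -3.11 with an adjusted p of 0.0379, and none of the 8 vessel genes. Groups are named here by what their labels say, and the average HRF effect is given with and without the FcRg KO-labelled arrays.

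Leukocytes leave the blood in steps. They roll on the selectins of activated endothelium, are stopped when chemokines held on the vessel surface activate their integrins, and bind by those integrins to ICAM-1 and VCAM-1 before passing between endothelial cells at junctions that hold PECAM-1. Most of this takes place in small veins, and in the lung also in the alveolar capillaries. Resting endothelium stores P-selectin with von Willebrand factor in Weibel-Palade bodies, whereas E-selectin is made only after activation, by signals such as TNF or IL-1 that act through NF-kB, and in mice the P-selectin gene responds to such signals too. Ackr1, formerly Darc, marks venules and binds many inflammatory chemokines without signalling through G proteins.

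The endothelium itself was measured at a similar level on every array. All 22 pan-endothelial markers, such as Cdh5, Kdr and Tek, were well above background on all 6 arrays, their summed level (relative to the 75th percentile, linear scale) lay between 533 and 606, and their median ratio of HRF to PBS was -0.14 in WT, -0.028 on the FcRg KO-labelled arrays and -0.0037 on the FceRIa KO-labelled arrays. Ratios in whole lung are of bulk RNA, in which fewer cells of a type and less RNA per cell cannot be told apart.

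The stretches before the gene starts are shown for the 3 genes with the highest HRF ratios in WT, Sele, Ackr1 and Selp, and for Icam1, whose ratio there was small, so that their letters can be set side by side. They are the 250 bases upstream of the start in RefSeq's GRCm38.p6, at chr1:164047984-164048233 (plus strand) for Sele, chr1:164115014-164115263 (plus strand) for Selp, chr1:173333504-173333753 (minus strand) for Ackr1 and chr9:21015690-21015939 (plus strand) for Icam1, each printed 5′ to 3′ on the gene's strand. Capitals mark matches on either strand to the NF-kB-type patterns, GGNNNTTCC and a longer one of 3 G, any 5 bases and 2 C, which can overlap each other, and the letters TATAAA.
Sele: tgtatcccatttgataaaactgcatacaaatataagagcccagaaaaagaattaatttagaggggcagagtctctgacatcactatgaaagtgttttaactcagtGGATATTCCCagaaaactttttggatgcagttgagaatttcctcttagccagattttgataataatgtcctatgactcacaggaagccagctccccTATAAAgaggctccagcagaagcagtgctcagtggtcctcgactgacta
Selp: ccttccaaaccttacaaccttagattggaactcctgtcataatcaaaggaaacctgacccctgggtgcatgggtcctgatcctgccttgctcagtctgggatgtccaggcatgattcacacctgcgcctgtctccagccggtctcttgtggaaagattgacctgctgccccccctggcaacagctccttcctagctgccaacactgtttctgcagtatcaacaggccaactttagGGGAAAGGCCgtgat
Ackr1: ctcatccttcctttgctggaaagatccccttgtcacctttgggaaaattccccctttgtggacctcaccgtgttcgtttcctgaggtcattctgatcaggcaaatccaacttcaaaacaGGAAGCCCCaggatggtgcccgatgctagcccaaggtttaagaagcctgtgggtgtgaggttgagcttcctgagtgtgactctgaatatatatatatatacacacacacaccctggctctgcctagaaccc
Icam1: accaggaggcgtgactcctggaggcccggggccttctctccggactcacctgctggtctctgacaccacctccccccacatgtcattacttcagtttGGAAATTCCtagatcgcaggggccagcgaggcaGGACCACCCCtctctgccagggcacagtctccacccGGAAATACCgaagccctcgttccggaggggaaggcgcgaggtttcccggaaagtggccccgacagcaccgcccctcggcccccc

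All 4 stretches hold a match to at least 1 of the NF-kB-type patterns. In Sele it is GGATATTCC, 145 to 137 bases upstream of the start, and only this stretch of the 4 also holds TATAAA. In Icam1 it is the palindromic GGAAATTCC, 153 to 145 bases upstream, with GGAAATACC 84 to 76 bases upstream. In Selp the match GGGAAAGGCC lies 15 to 6 bases upstream, and in Ackr1 GGAAGCCCC lies 131 to 123 bases upstream. Of all 32851 stretches of this length in the table, 15.7% hold GGNNNTTCC and 45.8% hold the longer pattern, so the latter pattern is common anywhere. TTCNNNGAA, a STAT-type pattern found in 7.02% of all stretches, occurs in Sele and Icam1, and TGANTCA, an AP-1-type pattern found in 6.75%, in Sele and Selp. Of the 8 genes, 5 have an entry in the table, and the fifth, Madcam1, holds matches to both NF-kB-type patterns.

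In WT lung, HRF came with higher levels of 4 of the 8 genes: both selectins, Ackr1 and Vcam1 were 2.69-fold to at least 17.4-fold higher on the HRF array than on the PBS array. The latter value, that of Sele, depends on the background correction. In the FceRIa KO-labelled arrays, Selp and Ackr1 were about 2-fold higher. In the FcRg KO-labelled arrays none of the 7 genes that could be compared differed by 2-fold. Icam1, Madcam1, Vwf and Pecam1 differed by less than 2-fold under every label. Of all genes compared, 2.32% were at least 2-fold higher with HRF in WT and 1.48% on the FceRIa KO-labelled arrays. On the FcRg KO-labelled arrays 0.765% were higher and 1.18% lower.

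**Figure D1:**
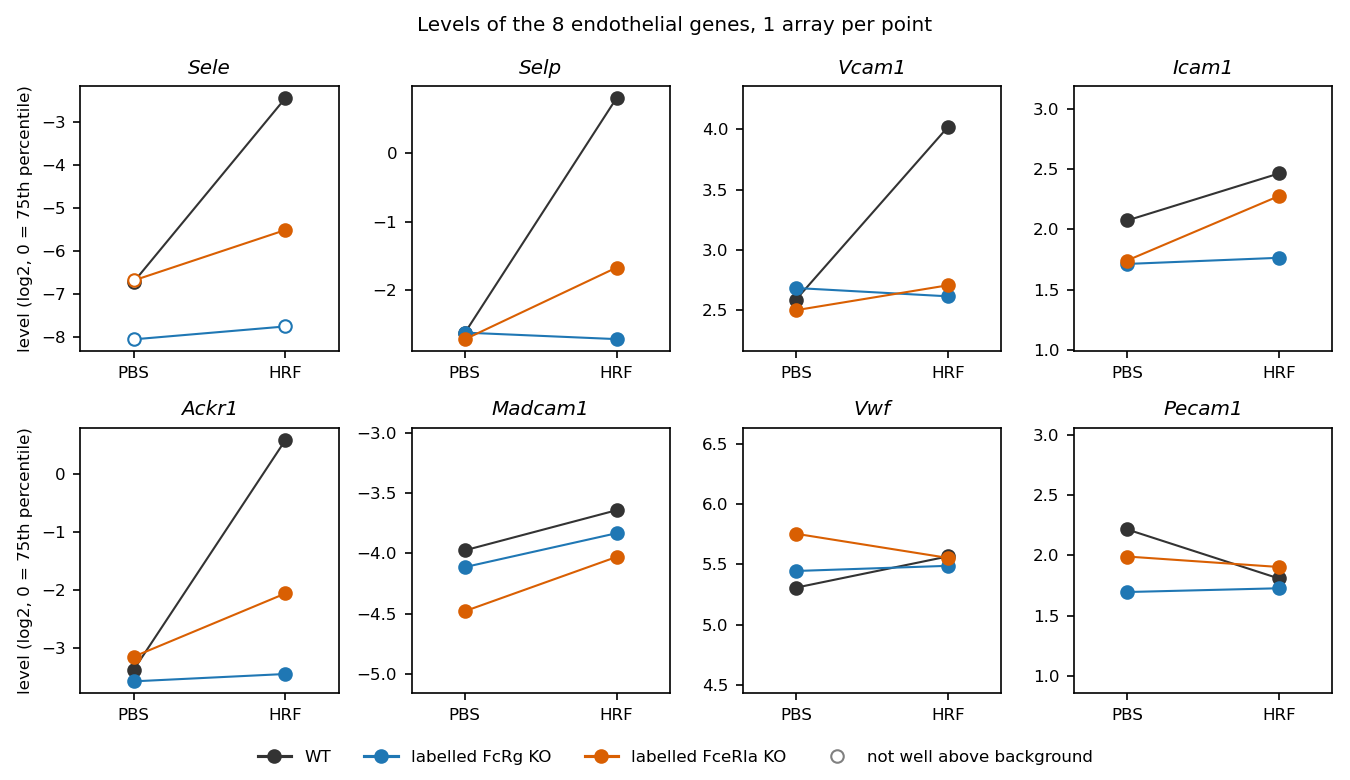
Levels of the 8 genes on each array (y axis, log2 relative to the array's 75th percentile; x axis, challenge), 1 array per point with lines joining the 2 arrays of a genotype label, and open circles for probes not well above background; the y axes differ between panels. Sele, Selp, Vcam1 and Ackr1 stand highest on the WT HRF array, Selp at 0.81 and between -2.72 and -1.67 on the other 5, whereas Vwf and Pecam1 span less than 1 log2 unit over all arrays.

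Sele encodes E-selectin, on which leukocytes roll. Its level was -2.45 on the WT HRF array and -5.51 on the HRF array of the FceRIa KO label, and on the WT PBS array (-6.72), the PBS array of the FceRIa KO label (-6.69) and both FcRg KO-labelled arrays (-8.05 with PBS, -7.75 with HRF) it was not well above background. Sele was thus measured only where HRF was given, and on 2 of the 3 HRF arrays. Set against the lowest signal of any probe well above background on the PBS array, it was at least 17.4-fold higher with HRF in WT and at least 1.86-fold higher on the FceRIa KO-labelled arrays, and no ratio can be given for the FcRg KO-labelled arrays. With normexp background correction and quantile normalization the same ratios were 2.16 log2 in WT and 0.25 log2 under the label FceRIa KO. Between the HRF arrays, Sele was 8.35-fold lower on the one labelled FceRIa KO than in WT and at least 16.8-fold lower on the one labelled FcRg KO.

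Selp encodes P-selectin, which endothelium and platelets store and bring to their surface within minutes of activation. Its level was -2.63 and 0.81 with PBS and HRF in WT, -2.62 and -2.72 on the FcRg KO-labelled arrays, and -2.72 and -1.67 on the FceRIa KO-labelled arrays. The 3 PBS arrays thus lay within 0.099 log2 of each other, the HRF array of the FcRg KO label among them, the HRF array of the FceRIa KO label above them and the WT HRF array above all. The ratio was 10.8-fold in WT, rank 20 of 16664 measured ratios, 2.07-fold on the FceRIa KO-labelled arrays, rank 164 of 15790, and log2 -0.095 on the FcRg KO-labelled arrays.

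The Selp probe was printed 10 times on each array, against 2 times for Pecam1 and 1 for the other 6 genes, which gives a measure of the technical spread. After outlier spots were left out, 8 to 10 spots remained per array, with an SD of 0.058 to 0.103 log2. The lowest spot on the HRF array of the FceRIa KO label, at -1.80, lay above every spot of the PBS arrays, the highest of which was at -2.46. On the FcRg KO-labelled arrays the spots of PBS and HRF overlapped. Repeat spots share 1 hybridised sample and so say nothing of the spread between mice.

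**Figure D2:**
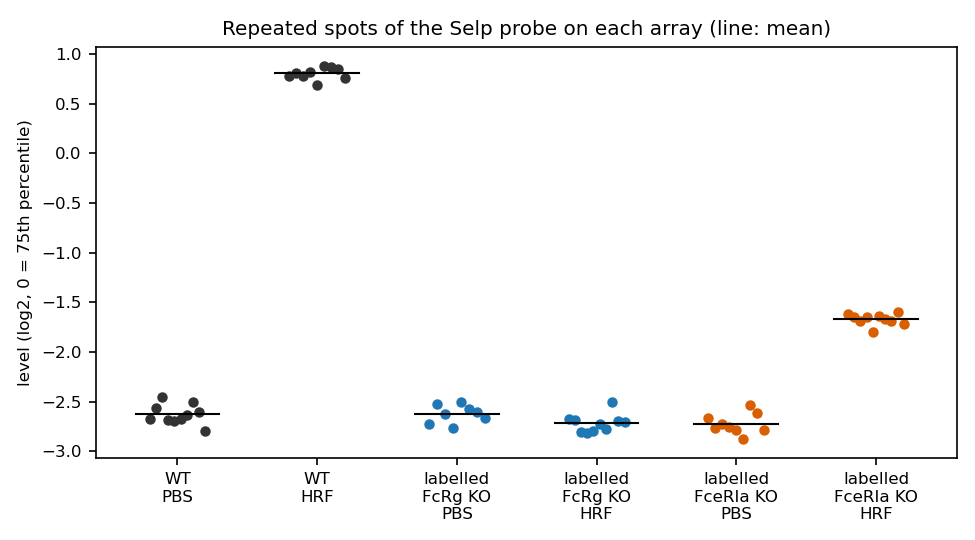
Each point is 1 of the repeated spots of the Selp probe (y axis, log2 level relative to the 75th percentile) on the array named on the x axis, and the line is their mean. The spots lie within a narrow band on each array, the WT HRF spots from 0.69 to 0.88, and the bands of both FcRg KO-labelled arrays overlap with those of the other PBS arrays.

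Ackr1 was at -3.38 and 0.59 with PBS and HRF in WT, -3.57 and -3.45 on the FcRg KO-labelled arrays, and -3.15 and -2.06 on the FceRIa KO-labelled arrays. The order of arrays was that of Selp at the top: WT HRF first, HRF labelled FceRIa KO next, and the other 4 within 0.43 log2 of each other. The ratio was 15.7-fold in WT, rank 13 of 16664 measured ratios, 2.13-fold on the FceRIa KO-labelled arrays, and log2 0.13 on the FcRg KO-labelled arrays. Ackr1 lies 3 protein-coding genes from Fcer1a on chromosome 1, and with PBS its level on the array of the FceRIa KO label, where Fcer1a was 3.58 log2 above WT, was 0.23 log2 above WT. Mouse erythroid cells can also carry this receptor, and the summed level of 12 measured erythroid markers was 642 and 637 with PBS and HRF in WT, 758 and 925 on the FcRg KO-labelled arrays and 703 and 840 on the FceRIa KO-labelled arrays. The erythroid sum thus moved with Ackr1 on the FceRIa KO-labelled arrays and not in WT, and its part in the Ackr1 ratios was not tested.

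Chemokines that Ackr1 is known to bind were higher with HRF under both labels in which Ackr1 was higher. Of 9 such chemokines, 8 were at least 2-fold higher in WT (median 3.52 log2) and 8 on the FceRIa KO-labelled arrays (median 3.66), against 0 of 8 compared on the FcRg KO-labelled arrays (median 0.30). At PBS, 6 of the 9 were at least 2-fold lower under the label FceRIa KO than in WT (median -1.53). At HRF 6 were so as well (median -1.18). The summed level of the 9 was 23.1 and 124 with PBS and HRF in WT, and 19.5 and 42.9 under the label FceRIa KO. Cxcl5, which draws neutrophils, was 108-fold higher in WT and 61.2-fold higher on the FceRIa KO-labelled arrays, and the monocyte chemokine Ccl7 was 27.2-fold and 12.6-fold higher. The neutrophil chemokine Cxcl3 was 8.75-fold higher in WT and 52.0-fold higher on the FceRIa KO-labelled arrays, where Ackr1 had the smaller ratio. Ccl5 was the chemokine of the list that stayed under 2-fold under every label.

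Vcam1 encodes the ligand of the integrin VLA-4 of lymphocytes, monocytes and eosinophils. Its level was 2.59 and 4.02 with PBS and HRF in WT, 2.69 and 2.62 on the FcRg KO-labelled arrays, and 2.50 and 2.71 on the FceRIa KO-labelled arrays. The WT HRF array stood alone, and the other 5 lay within 0.21 log2 of each other. The ratio was 2.69-fold in WT, rank 204 of 16664, and log2 -0.069 and 0.21 under the labels FcRg KO and FceRIa KO. A second Vcam1 probe gave nearly the same ratios, 1.44, -0.044 and 0.33 log2.

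Icam1 encodes the ligand of the leukocyte integrins LFA-1 and Mac-1, and lung epithelium carries it as well as endothelium. Its level was 2.07 and 2.46 with PBS and HRF in WT, 1.71 and 1.76 on the FcRg KO-labelled arrays, and 1.74 and 2.28 on the FceRIa KO-labelled arrays. The ratios were 1.31-fold, log2 0.051 and 1.45-fold. Among the 7 vessel genes measured on all arrays, Icam1 and Madcam1 were those whose ratio was higher under the label FceRIa KO than in WT while positive under all labels. The PBS arrays differed by up to 0.36 log2, against the WT ratio of 0.39.

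Madcam1 encodes the venule ligand of the gut-homing integrin alpha4beta7. Its level was -3.97 and -3.64 with PBS and HRF in WT, -4.11 and -3.83 on the FcRg KO-labelled arrays, and -4.48 and -4.03 on the FceRIa KO-labelled arrays. HRF was above PBS under all 3 labels, by 0.33, 0.28 and 0.45 log2, but the HRF and PBS arrays overlapped. The second Madcam1 probe, well above background on 4 arrays, gave -0.66, 0.55 and -0.21 log2, so that the probes disagree in direction in WT and under the label FceRIa KO. Of 8 high endothelial venule markers compared, none was 2-fold higher or lower in WT or under the label FceRIa KO, and their median ratios were 0.12 and 0.08.

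Vwf and Pecam1 are genes of blood endothelium, and platelets hold both products. Vwf, the gene of von Willebrand factor, was at 5.31 and 5.57 with PBS and HRF in WT, 5.45 and 5.49 on the FcRg KO-labelled arrays, and 5.75 and 5.55 on the FceRIa KO-labelled arrays. Pecam1, the gene of CD31, was at 2.21 and 1.81 in WT, 1.69 and 1.73 on the FcRg KO-labelled arrays, and 1.99 and 1.90 on the FceRIa KO-labelled arrays. The 3 PBS arrays of each spread further, over 0.45 log2 for Vwf and 0.52 for Pecam1, than the 3 HRF arrays, over 0.078 and 0.18. The largest ratio of either gene was -0.41 log2, for Pecam1 in WT. Of 18 platelet markers, 0 were 2-fold higher or lower under any label, and their median ratio was -0.33 in WT, 0.17 on the FcRg KO-labelled arrays and 0.47 on the FceRIa KO-labelled arrays. Their summed level was 36.0 and 31.3 with PBS and HRF in WT, 38.9 and 41.9 on the FcRg KO-labelled arrays and 40.1 and 54.8 on the FceRIa KO-labelled arrays, and it moved with Selp only under the last label. The part of platelets in the ratios of Selp, Vwf and Pecam1 was not tested.

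**Figure D3:**
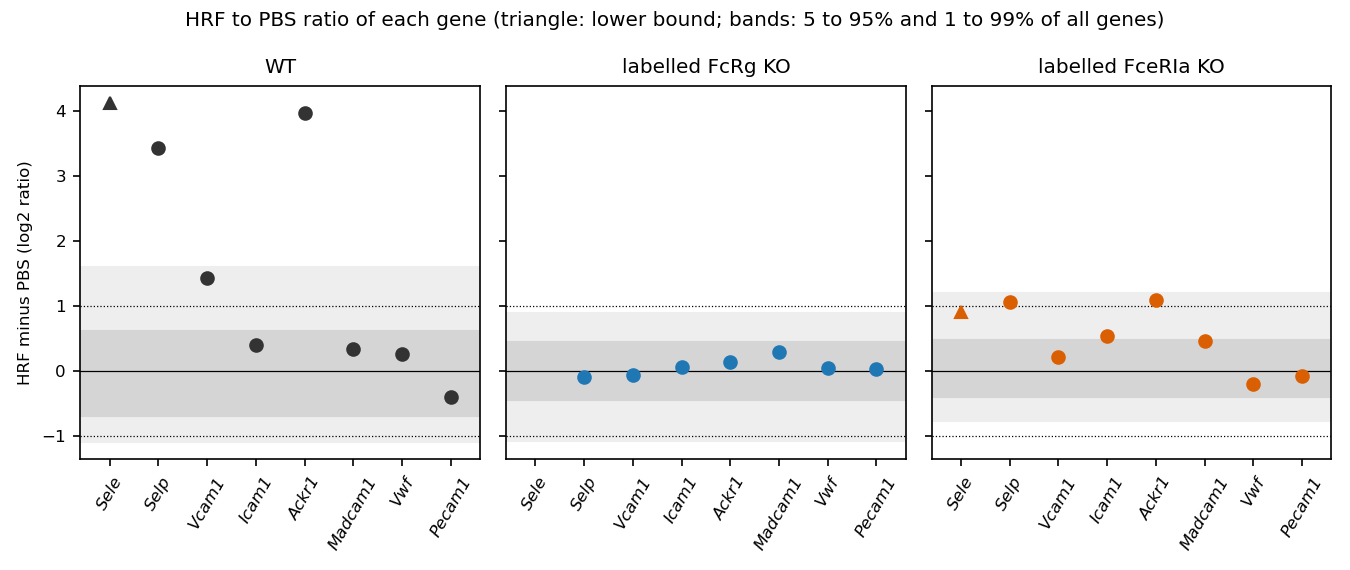
HRF to PBS ratio (y axis, log2) of each gene (x axis) under each genotype label, with triangles for lower bounds and grey bands from the 5th to the 95th (dark) and from the 1st to the 99th percentile (light) of all genes compared. In WT, Sele, Selp and Ackr1 lie between 3.44 and 4.12, above the 99th percentile of all genes at 1.60, Vcam1 at 1.43 lies between the 95th and the 99th percentile, and under the label FcRg KO all points lie within the dark band.

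Across all genes, 2.32% were at least 2-fold higher with HRF in WT (404 of 17436) and 1.52% at least 2-fold lower, against 4 of 8 and 0 of 8 of the vessel genes, whose median ratio was 0.91 log2 against -0.052 for all genes. On the FceRIa KO-labelled arrays, 1.48% of 16315 genes were higher and 0.447% lower, against 2 and 0 of the 8 vessel genes, with medians of 0.49 and -0.013. On the FcRg KO-labelled arrays, 0.765% of 16594 genes were higher and 1.18% lower, against 0 of 7 vessel genes, with medians of 0.043 and 0.0012. The vessel genes were chosen with earlier results of these data known, so these contrasts with all genes do not test them as a set. Scaling moved the balance of calls over all genes, which were higher in 60.4% of calls in WT, 39.4% under the label FcRg KO and 76.8% under the label FceRIa KO. With normexp background correction and quantile normalization these shares were 89.6%, 25.5% and 87.4%, with scaling on the median 85.3% in WT, where it shifted the median of all genes by 0.22 log2, 47.6% in WT with the deposited value table, and 47.5% in WT relative to the pan-endothelial markers. Under each of these scalings the 4 vessel genes stayed at least 2-fold higher in WT. The 2-fold calls of Selp and Ackr1 under the label FceRIa KO did not hold with normexp and quantile normalization, at 0.89 and 0.90 log2.

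Without HRF the labels differed by less than 2-fold in the 7 vessel genes that could be compared. Sele was not well above background on any PBS array and was left out. At PBS, 3.72% of 17376 genes differed at least 2-fold either way between the array of the FcRg KO label and WT, and 3.39% of 17384 between that labelled FceRIa KO and WT. The count of 0 of 7 vessel genes in either lies near these shares and so does not set the vessel genes apart. The differences lay between -0.52 (Pecam1) and 0.14 (Vwf) for the label FcRg KO and between -0.50 (Madcam1) and 0.45 (Vwf) for the label FceRIa KO. At HRF, 3.97% of 16917 genes and 3.29% of 16891 genes differed at least 2-fold from WT, and 4 of 8 vessel genes did under each label. These were again Sele, Selp, Vcam1 and Ackr1, all lower than on the WT HRF array, which both comparisons share. Selp was 11.5-fold lower under the label FcRg KO and 5.57-fold lower under the label FceRIa KO, Ackr1 16.4-fold and 6.27-fold, and Vcam1 2.64-fold and 2.48-fold. Icam1 was 0.70 and 0.19 log2 lower.

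The design allows a test only across labels, with limma fitted to all genes and 2 residual degrees of freedom, where a p-value measures the spread of the HRF ratio between the genotype labels and not between mice of a group. The average HRF effect was 1.91 ± 0.90 log2 (SE, 6 arrays) for Sele, 1.73 ± 0.86 for Ackr1, 1.46 ± 0.78 for Selp and 0.52 ± 0.35 for Vcam1, with adjusted p-values of 0.563, 0.568, 0.572 and 0.615. It was 0.35 ± 0.074 for Madcam1, higher in 3 of 3 labels, and 0.32 ± 0.12 for Icam1, also 3 of 3, both with an adjusted p of 0.556, the lowest of any gene. The Madcam1 value is that of its main probe. With the mean of its probes the average was 0.12, and the second probe gave -0.66, 0.55 and -0.21 log2 in WT and under the labels FcRg KO and FceRIa KO. Vwf at 0.034 ± 0.12 and Pecam1 at -0.15 ± 0.12 had adjusted p-values of 0.923 and 0.644. By limma 0% of 17605 genes passed an adjusted p of 0.05 for this effect, and 8.83% had an unadjusted p under 0.05, among them 1 of the 8 vessel genes, Madcam1. All 3 HRF arrays lay above all 3 PBS arrays in 6.55% of 15679 genes and in 0 of the vessel genes. Without the FcRg KO-labelled arrays the effects were 2.72 for Sele, 2.53 for Ackr1, 2.24 for Selp, 0.82 for Vcam1, 0.46 for Icam1 and 0.39 for Madcam1. Without the WT arrays they were 0.74, 0.61, 0.48, 0.069, 0.29 and 0.37, so that the averages of the first 4 rest largely on WT.

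The difference of the HRF response between labels was tested in the same model with 1 added term, which leaves 1 residual degree of freedom. The WT response exceeded that of the other labels by 3.53 ± 0.50 log2 (SE, 6 arrays) for Sele, whose dim values entered as measured, 3.36 ± 0.55 for Ackr1, 2.96 ± 0.64 for Selp and 1.36 ± 0.20 for Vcam1. Their unadjusted p-values in limma were 0.0104, 0.0147, 0.0288 and 0.0112, and each had an adjusted p of 0.569. These were 4 of the 8 vessel genes with an unadjusted p under 0.05, as had 8.69% of all genes, and 0% of genes passed the adjusted threshold. Since the vessel genes were chosen with earlier results of these data known, that count does not test them as a set. For Icam1, Madcam1, Vwf and Pecam1 the difference was 0.097, -0.033, 0.34 and -0.38. The corresponding terms for the labels FcRg KO and FceRIa KO passed in 0% of genes each, with adjusted p-values of the vessel genes between 0.938 and 0.997 for the former and at 0.9999 for the latter. The difference in average level from WT had adjusted p-values between 0.358 and 0.931 for the label FcRg KO and between 0.256 and 0.869 for the label FceRIa KO, where 0% of all genes passed. A difference between labels is therefore described here from single arrays and is not established by these tests.

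The genes differed in their course over the 6 arrays, given as Pearson's r without a test since the arrays share the same contrast. Selp and Ackr1 ran closest together (r = 0.993), followed by Selp and Vcam1 (0.974) and Vcam1 and Ackr1 (0.949). These r, and those of the genes most like these 3, rest largely on the WT HRF array. Selp, Ackr1 and Vcam1 stood there at 0.81, 0.59 and 4.02, against at most -1.67, -2.06 and 2.71 on the other arrays. Sele is left out, since it was dim on 4 of the 6 arrays. Icam1 had an r of 0.848 with Selp, whereas Vwf and Pecam1 had an r of 0.168 and -0.195 with Selp. Among 1520 genes well above background on all arrays and with a range of at least 1 log2, the gene most like Selp was Ptx3, a secreted pattern-recognition protein (r = 0.997, ratios 3.06, -0.10 and 1.07 log2 in WT and under the labels FcRg KO and FceRIa KO), followed by Slc39a14, a zinc and iron transporter, and Ggct. Slc39a14 was also among the 3 genes most like Ackr1, after Osmr, the oncostatin M receptor (r = 0.997, ratios 1.28, 0.11 and 0.43), and before Arid5a. The genes most like Vcam1 were Tnfrsf4, Il2ra and Il12rb1, which encode receptors of activated T cells, with r of 0.993, 0.992 and 0.992. Il2ra had ratios of 2.45, -0.020 and 0.47. Those most like Icam1 were Inhba, Il4i1 (r = 0.972) and Saa2 (r = 0.971), and Saa2, an acute-phase protein, had a higher ratio under the label FceRIa KO (4.34) than in WT (3.11). Madcam1, by its main probe, was most like the growth factor Areg (r = 0.968, ratios 0.78, 0.83 and 0.84), Gpr176 and Galnt9. Pecam1 was most like the clock gene Per3 (r = 0.991, ratios -1.11, 0.11 and -0.24), Zfp839 and Coro6, and Vwf, with r of at most 0.874, like Xlr3b, Trim30b and Mmp8. Icam1, Madcam1, Vwf and Pecam1 spanned only 0.75, 0.84, 0.45 and 0.52 log2 over the 6 arrays. Their r are the highest among 1521 genes over 6 arrays, and how high such r would be for unrelated genes was not tested.

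Other adhesion and junction molecules of endothelium stayed within 2-fold. Of 28 such genes, among them Icam2, Cdh5, Cldn5 and Mcam, 0 were 2-fold higher or lower under any label, with medians of -0.07 in WT, 0.04 under the label FcRg KO and -0.01 under the label FceRIa KO. The largest average differences were those of the scavenger receptor Stab2, Podxl2 and Glg1, between -0.64 and 0.053 log2. Genes of the Weibel-Palade body, the store of P-selectin and von Willebrand factor, had a median of 0.04 in WT, and the 3 of 20 past 2-fold there, Il6, Cxcl1 and Ccl2, are cytokines that many other cells make. Venous markers had a median of 0.25 in WT, arterial markers -0.28, lung capillary markers -0.13 and lymphatic markers -0.16, with 0 genes of these 4 lists past 2-fold under any label.

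Cytokines that act on endothelium, their receptors and NF-kB pathway genes were read in the whole lung and not in endothelium alone, and part of them were higher with HRF in WT. Of 29 cytokines and receptors, 13 were at least 2-fold higher in WT (median 0.64), 5 higher and 1 lower under the label FceRIa KO (median 0.12), and 1 of 28 higher under the label FcRg KO (median -0.02). Il6 was 27.8-fold higher in WT and 17.9-fold higher under the label FceRIa KO, and Tnf 2.93-fold and 4.74-fold. Il1b was 6.74-fold and 2.14-fold higher. The ratios of Il6 and Il1b were thus smaller under the label FceRIa KO than in WT, and that of Tnf was larger. The PBS levels differed as well. Tnf stood at -3.03 and -1.47 with PBS and HRF in WT, and at -3.74 and -1.50 under the label FceRIa KO. Il6 stood at -2.28 and 2.51 in WT, and at -4.79 and -0.63 under that label. Il1b stood at 0.20 and 2.96 in WT, and at 0.93 and 2.03 under that label. The part of these cytokines in the ratios of the vessel genes was not tested. Of 18 NF-kB pathway genes, 4 were at least 2-fold higher in WT (median 0.48), 3 of 17 under the label FceRIa KO (median 0.42) and 0 of 17 under the label FcRg KO (median -0.02). Tnfaip3, an NF-kB-induced inhibitor of the pathway, was 2.58-fold higher in WT and 2.57-fold under the label FceRIa KO, and Nfkbie, an inhibitor of NF-kB, 2.18-fold and 2.28-fold. Bcl3, an NF-kB cofactor, was 3.87-fold and 1.92-fold higher.

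**Figure D4:**
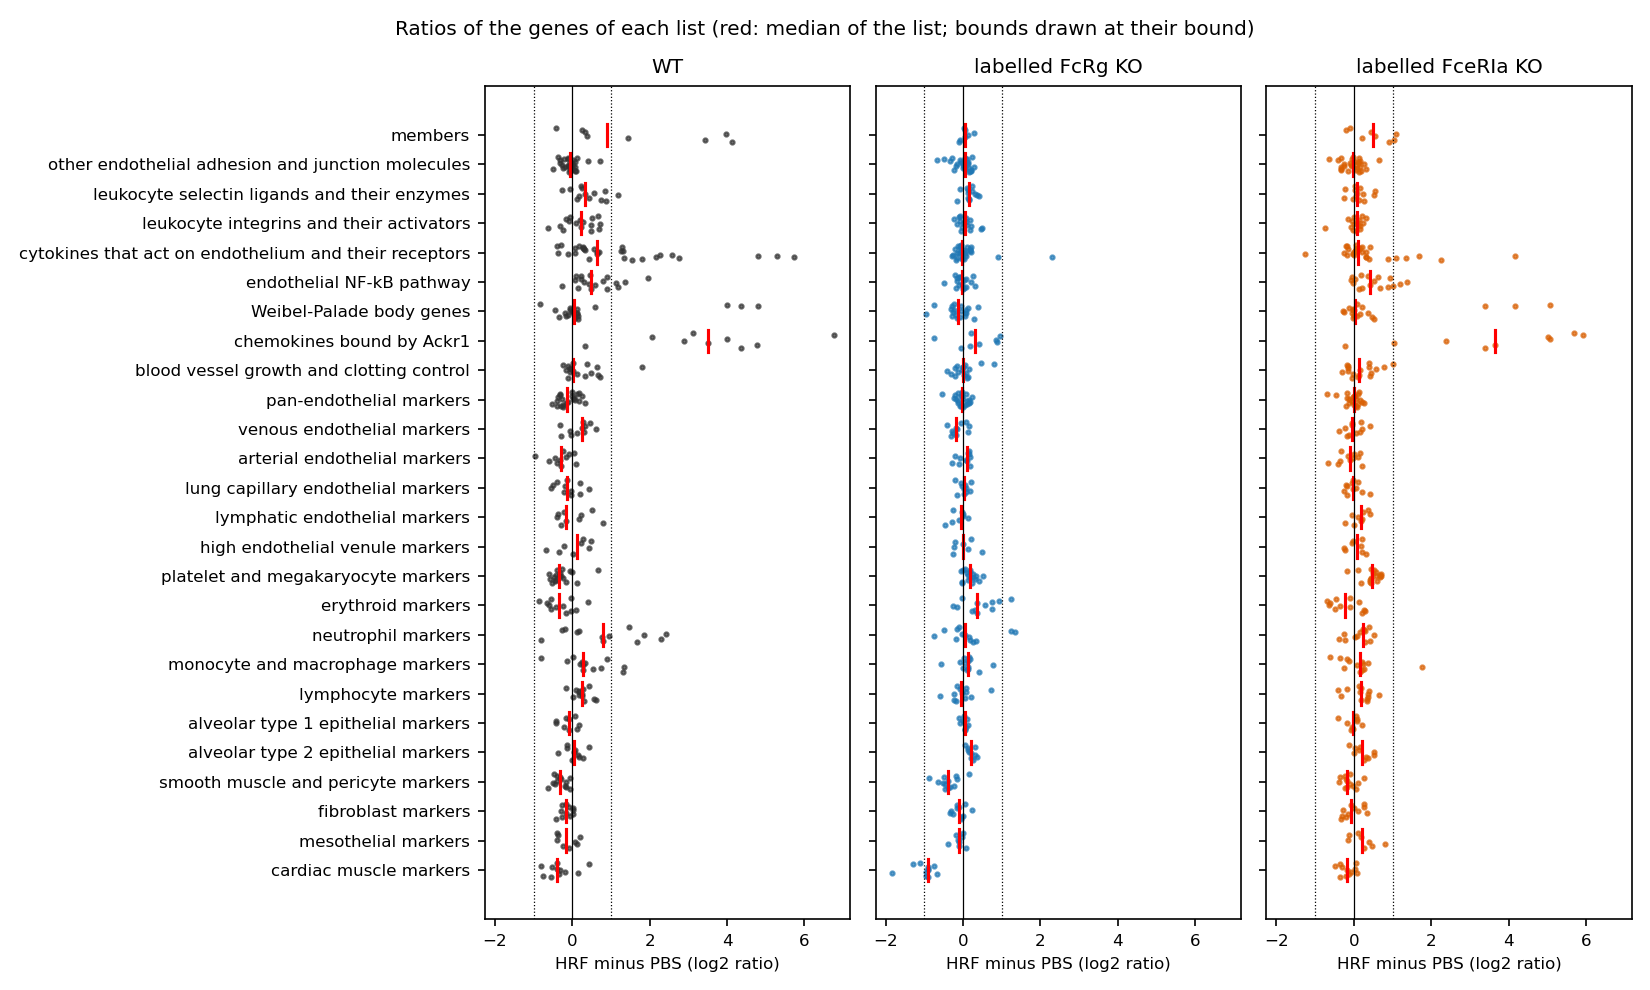
HRF to PBS ratios (x axis, log2) of the genes of each list (rows) under each genotype label, 1 point per gene, with the list's median in red, bounds at their bound, and dotted lines at 2-fold. The vessel genes are the first row, labelled members; chemokines bound by Ackr1 stand furthest right in WT and under the label FceRIa KO (medians 3.52 and 3.66), and pan-endothelial markers lie near 0 under all labels.

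On the leukocyte side of the same contacts, counts past 2-fold in WT were near the share of all genes, 2.32%. Of 13 genes of selectin ligands and their enzymes, 1 was 2-fold higher in WT, the sialyltransferase St3gal4 at 2.26-fold, and 0 under the other labels, with medians of 0.33, 0.16 and 0.09. The hyaluronan receptor Cd44 was 1.79-fold and the P-selectin ligand Selplg 1.67-fold higher in WT. Of 16 integrins and activators, 0 were past 2-fold under any label, with a median of 0.22 in WT.

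Part of the neutrophil markers moved with the vessel genes in WT. Of 13 neutrophil markers, 5 were at least 2-fold higher in WT (median 0.80), 2 under the label FcRg KO (median 0.05) and 0 under the label FceRIa KO (median 0.24), and their summed level was 183 and 220 with PBS and HRF in WT, 204 and 242 under the label FcRg KO and 263 and 300 under the label FceRIa KO. The marker Retnlg was 3.63-fold, S100a8 3.20-fold and the decoy receptor Il1r2 5.33-fold higher in WT, whereas Csf3r, the receptor of a neutrophil growth factor, was 1.74-fold lower and Camp, Ngp, Ltf and Stfa1 lay between -0.27 and 0.17 log2. The last 5 were named after their values were seen. Of 13 monocyte and macrophage markers, 2 were higher in WT and 1 under the label FceRIa KO, in both cases including Marco, at 2.52-fold and 3.38-fold. Lymphocyte markers had medians of 0.25, -0.05 and 0.19. The part of these cells in the ratios of the vessel genes was not tested. Smooth muscle, fibroblast, epithelial and mesothelial markers had 0 genes past 2-fold under any label, and of 11 cardiac muscle markers 3 were lower under the label FcRg KO, with a median of -0.91.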

How the data were processed

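The scanner output was read with Agilent's Feature Extraction software, version 10.7.3.1, and the array design is annotated on mm9, per the file headers. The deposited processed signals are intensities after background subtraction and spatial detrending by that software, per the file headers, with no scaling between arrays. The deposited value table holds log2 values of unstated scale and centring.

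Outlier and control spots were left out, the spots of a probe averaged, and probes named by RefSeq accession (26056 of 55681; GRCm38.p6). A gene with several probes took the probe with the highest mean. A ratio was taken where at least 1 of its arrays had the gene well above background. Where the other array did not, the floor was that array's weakest probe still well above background, or the gene's own signal if stronger, and the ratio is a bound. Tests used limma 3.58.1 in R 4.3.3 (lmFit, eBayes, genotype label and challenge additive) with Benjamini-Hochberg adjustment over 17605 genes, tested on simulated data. Other steps used Python 3.11.15. Alternatives were quantile normalization after normexp (offset 50), the value table, scaling on the median or on pan-endothelial markers, other filters and probes, trended eBayes, and leaving out the arrays of a label.

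The genes and lists were chosen with earlier results of these data known. Named are the 8 vessel genes, Fcer1a and Fcer1g, up to 3 genes per list with the largest mean ratio over labels, list genes past the limma threshold, and the 3 genes most like each vessel gene. Genes outside this rule, such as Ccl5, were chosen after their values were seen, and the text leaves out some genes that the rule names.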

Additional observations from a re-analysis of the deposited data

How the results depend on the processing

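No paired analysis was possible because each group has 1 array, so replicate numbers pair none, and the limma fit sets HRF against PBS within each genotype label instead. Of 672 values of the 8 genes under alternative settings, 666 stayed on their side of the threshold or 2-fold limit and no called value reversed, while 28 values within the limit took the other sign, such as Madcam1 in WT by its second probe (-0.66 log2). In WT this held for 59 of 59 values, with Selp between 3.14 and 3.66 log2, Ackr1 between 3.38 and 4.19, Vcam1 between 1.33 and 1.65. The bound of Sele was 4.12, and 4.34 with scaling on the median, while its value as measured was 2.16 with normexp and quantile normalization and between 4.27 and 4.30 in the value table, with no filter and relative to pan-endothelial markers. Under the label FceRIa KO it held for 53 of 59: Selp was 0.89 and Ackr1 0.90 log2 with normexp and quantile normalization, which leaves 0 genes at 2-fold there, the lowest single Selp spot gave 0.84 (chosen after the data were seen), and Sele was 1.20 in the value table, 1.17 with no filter and 1.24 relative to pan-endothelial markers. Over all alternatives the adjusted p of the average HRF effect of the 8 genes lay between 0.405 and 0.950. Part of the unchanged values was fixed in advance. For genes well above background on all arrays the filter settings return the main ratio, and the mean of probes does so for genes with 1 probe. The limma values of the 8 genes were far from the threshold under every setting, so their unchanged calls say little of robustness.

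Counts over all genes moved more. With normexp and quantile normalization, 35 genes were lower with HRF in WT, 27 higher and 79 lower under the label FcRg KO, and 118 higher and 17 lower under the label FceRIa KO. From WT, 164 and 79 genes differed at PBS and 345 and 226 at HRF (labels FcRg KO and FceRIa KO), and limma called 43 and 2. In the value table, 538 genes were lower in WT, 226 higher and 299 lower under the label FcRg KO, and 155 lower under the label FceRIa KO. From WT, 1242 and 1340 genes differed at PBS and 1009 and 1051 at HRF, and limma called 11 for the label FcRg KO. With scaling on the median, 614 genes were higher and 106 lower in WT, and limma called 25 genes for the label FceRIa KO against WT and 131 for its response. With no filter on dim probes, 921 genes were lower in WT, 483 higher and 507 lower under the label FcRg KO, and 587 higher and 306 lower under the label FceRIa KO. From WT, 1853 (1 vessel gene, Sele) and 2009 differed at PBS and 1500 and 1630 at HRF, and limma called 16. With the strict filter, 34 genes were lower under the label FceRIa KO, and 396 and 274 differed from WT at PBS. Relative to pan-endothelial markers, 486 genes were lower in WT, 204 higher under the label FcRg KO and 133 lower under the label FceRIa KO. The share of calls that were higher, in WT and under the labels FcRg KO and FceRIa KO, was 37.0%, 48.8% and 65.7% with no filter. The causes were not tested, beyond the number of genes that each filter leaves.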
